A study of Homo sapiens with 2 samples.

Results

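Mitochondrial shape is set by a small number of proteins that join or divide the membranes. The 10 genes described here encode proteins of membrane fusion and fission, a protease that cuts OPA1, the prohibitins and a protein of cation exchange. These genes are OPA1, OMA1, MFN1, MFN2, DNM1L, FIS1, MFF, PHB, PHB2 and LETM1. They were chosen by symbol, and each had 1 row among the 25277 rows of the gene tables of WT and PERK-KO cells. All 10 passed the filter on low values, which kept the 14594 rows whose FPKM reached 1 in either sample. FPKM is the number of sequenced fragments of a gene scaled by the length of its transcript and by all mapped fragments of the library.

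WT and PERK-KO HEK293 cells, a human embryonic kidney line, were both incubated for 12 h in OXPHOS medium, which lacks glucose and makes cells depend on oxidative phosphorylation for ATP, and polyadenylated RNA was sequenced from 1 sample of each genotype. The PERK-KO line was made with CRISPR/Cas9 and grown from single cells, so effects of the clone and of the loss of PERK cannot be told apart, and no other clone and no sample in glucose was analysed here. With 1 sample per genotype there is no replicate error and no test of any difference. Each value is given with the deposited lower and upper confidence limits, which cover the counting and assignment of fragments in that library only, and a gene is called higher or lower in PERK-KO cells where the limits of the 2 samples lay apart. Since RNA came from whole cultures, fewer expressing cells and less RNA per cell cannot be told apart.

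Mitofusins on the outer membrane and OPA1 on the inner membrane are GTPases that fuse mitochondria, and OPA1 also holds the necks of the cristae closed. DRP1, the dynamin encoded by DNM1L, is recruited from the cytosol by adaptors on the outer membrane and constricts the organelle. The prohibitins PHB and PHB2 assemble into a ring-shaped scaffold in the inner membrane that restrains the processing of OPA1, and LETM1 is an inner membrane protein of cation exchange that is needed for normal mitochondrial volume. PERK, the kinase targeted in the knockout line, is a sensor of protein folding stress in the endoplasmic reticulum, part of which lies in contact with mitochondria.

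Labels and libraries were examined first. EIF2AK3, the gene that encodes PERK, had an FPKM of 5.61 (limits 5.11 to 6.12) in WT cells and 3.89 (limits 3.44 to 4.34) in PERK-KO cells, so its mRNA was lower but still present, and a gene-level FPKM does not show whether a small deletion is in it. Of 7 markers of HEK293 cells, 4 were above an FPKM of 10 in both samples (VIM, KRT8, KRT18 and NEFL), and the 7 summed to an FPKM of 1347 in the WT and 1063 in the PERK-KO sample. The other 3 were low, with PAX2 at 0.981 and 0.748, NEFM at 0.662 and 5.21 and LIN28B at 4.16 and 7.05 in the WT and PERK-KO sample. Of 5 markers of other cells, CD3E, ALB and UCP1 were listed at 0 in both samples, and the 5 summed to 5.08 and 4.80, nearly all of it COL1A1. The deposited tables hold no fragment counts. The widths of the limits of the 10 genes equalled those of 253 to 6204 fragments under counting error alone, and the limits lay 2.54% to 12.6% of the value to either side of it.

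Of the 10 genes, 6 were higher in PERK-KO cells (OPA1, OMA1, MFN1, MFN2, DNM1L and LETM1), 3 were lower (FIS1, PHB and PHB2), and the limits of MFF overlapped. Among the 14594 rows above the filter, 26.1% were higher and 18.7% were lower by the same rule. The split of 6 higher and 3 lower became 2 higher and 3 lower when the median log2 fold change of all genes was set to 0, and 1 higher and 2 lower when the median of genes of like transcript length was subtracted, which also reversed the sign of OPA1, DNM1L and PHB2. None of the 10 differed by more than 1.5-fold in either direction, a size that 10.1% of the 14594 rows passed on the higher and 7.54% on the lower side. The median log2 fold change, PERK-KO over WT, was 0.17 over the 10 genes and 0.04 over the 14439 of these rows that were above 0 in both samples, with an interquartile range from -0.23 to 0.31. FIS1, at -0.56, and OMA1, at 0.38, lay outside that range, as did PHB, at -0.27, and the other 7 lay within it.

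**Figure D1:**
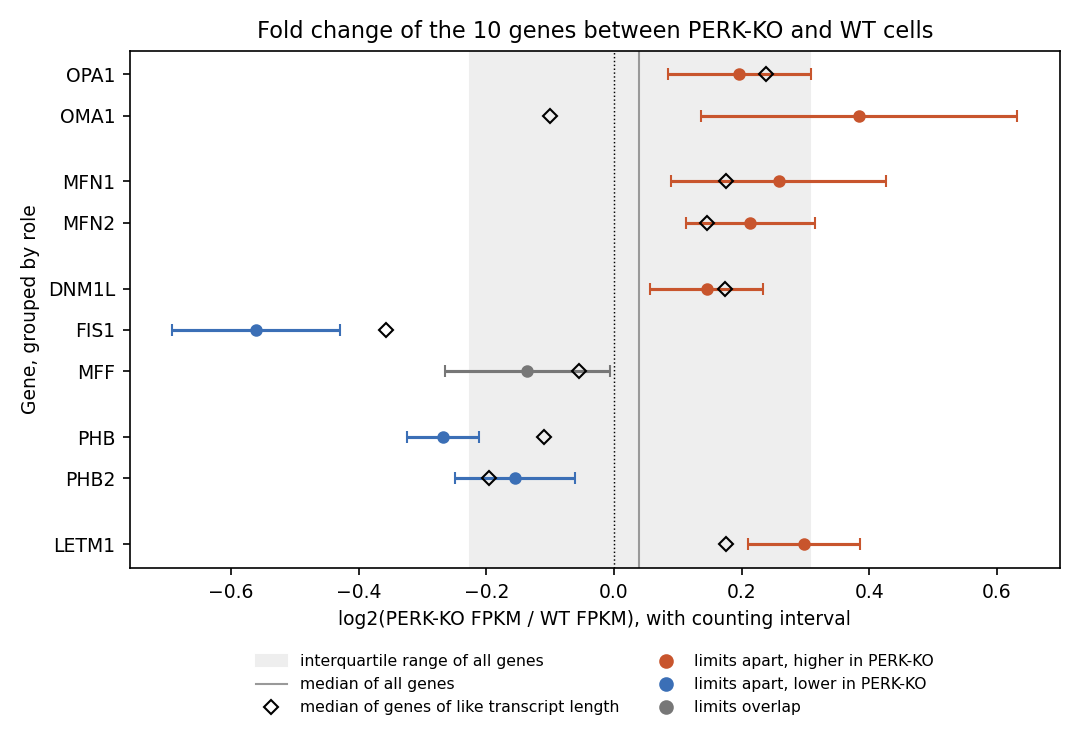
Log2 fold change of PERK-KO over WT FPKM (x axis) for each of the 10 genes, grouped by role (y axis), with horizontal bars for the interval obtained from the deposited limits of both samples. FIS1 at -0.56, PHB at -0.27 and OMA1 at 0.38 lie outside the grey band, the interquartile range of all genes from -0.23 to 0.31, and the diamonds give the median of genes of like transcript length.

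The promoters of 4 members are shown because they held a motif of a transcription factor of nuclear genes for mitochondria, namely CCGGAAG, bound by GABP, or CGCATGCG, the core of the palindrome bound by NRF1. Promoter sequences were taken from RefSeq (GRCh38.p14) for 9 of the 10 genes, without LETM1, and windows from 250 bases before to 50 after the transcription start were searched on both strands. The 250 bases before the start are printed 5′ to 3′ on the strand of the gene, with the motif in capitals.

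FIS1, chr7:101245082-101245331, minus strand: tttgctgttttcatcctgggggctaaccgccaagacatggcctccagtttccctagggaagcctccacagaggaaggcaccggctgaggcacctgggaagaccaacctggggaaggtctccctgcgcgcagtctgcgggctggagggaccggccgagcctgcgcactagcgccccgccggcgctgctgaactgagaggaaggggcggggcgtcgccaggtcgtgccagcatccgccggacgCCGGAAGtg

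PHB2, chr12:6970754-6971003, minus strand: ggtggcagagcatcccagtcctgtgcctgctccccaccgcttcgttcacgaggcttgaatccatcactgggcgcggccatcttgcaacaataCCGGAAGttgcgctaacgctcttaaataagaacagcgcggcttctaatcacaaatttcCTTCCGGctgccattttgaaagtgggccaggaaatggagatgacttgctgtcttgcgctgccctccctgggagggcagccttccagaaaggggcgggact

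MFN1, chr3:179347459-179347708, plus strand: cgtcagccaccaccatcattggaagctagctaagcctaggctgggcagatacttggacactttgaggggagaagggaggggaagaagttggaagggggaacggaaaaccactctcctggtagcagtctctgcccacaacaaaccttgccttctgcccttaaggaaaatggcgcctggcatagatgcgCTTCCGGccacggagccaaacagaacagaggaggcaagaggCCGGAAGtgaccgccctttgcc

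OPA1, chr3:193592958-193593207, plus strand: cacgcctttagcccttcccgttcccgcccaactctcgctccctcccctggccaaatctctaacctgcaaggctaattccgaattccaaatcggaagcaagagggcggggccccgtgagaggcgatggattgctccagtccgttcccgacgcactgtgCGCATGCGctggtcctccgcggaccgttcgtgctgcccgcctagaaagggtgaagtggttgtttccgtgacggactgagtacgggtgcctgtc

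CCGGAAG began 9 bases before the start of FIS1. In PHB2 it began 158 bases before the start shown, and its reverse complement 100 bases before it. MFN1 held it 22 bases before the start and its reverse complement 63 bases before. Thus 3 of 9 members held the motif, and 12.2% of the 27305 genes in the table held it in at least 1 of their windows. Of these 3 members 2 were lower and 1 higher in PERK-KO cells, beside 18.7% lower and 26.1% higher of all rows above the filter. Only the call of FIS1 was kept when the median of genes of like transcript length was subtracted. OPA1 held CGCATGCG 93 bases before its start, a motif in the windows of 2.46% of the genes, and no member held TGATGCAA, a composite element bound by ATF4, which was in those of 1.08%. No 2 motifs overlapped in these sequences, and a match describes the letters only.

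OPA1, the fusion GTPase of the inner membrane, and OMA1, a protease that cuts OPA1, were both higher in PERK-KO cells. Relative to genes of like transcript length, however, OPA1 came to -0.04 on the log2 scale. The limits of both genes overlapped when the libraries were scaled by the median, and stayed apart under 75th percentile scaling. Positions of genes are given on GRCh37. OPA1 (chr3:193310933-193415600, plus strand) had an FPKM of 14.9 (limits 14.1 to 15.7) in WT cells and 17.1 (limits 16.1 to 18.0) in PERK-KO cells. The limits lay apart, with a ratio of PERK-KO to WT of 1.15 (interval 1.06 to 1.24). The row sums the splice forms of OPA1, and the long and short forms of the protein cannot be seen in RNA. OMA1 (chr1:58946391-59012446, minus strand) encodes the stress-activated protease that cuts long OPA1, and it was the least abundant of the 10 genes, with an FPKM of 7.51 (limits 6.57 to 8.46) in WT cells and 9.81 (limits 8.65 to 11.0) in PERK-KO cells. Its ratio, 1.30 (interval 1.10 to 1.55), was the largest of the 10 above 1 and also the least precise. The FPKM of OPA1 was 1.98 times that of OMA1 in WT cells and 1.74 times in PERK-KO cells, and the ratio of these ratios, 0.878, had an interval that included 1 (0.727 to 1.06). With the median of genes of like transcript length subtracted from both, it was 0.695 (interval 0.575 to 0.839).

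The mitofusins were both higher in PERK-KO cells, by factors whose intervals overlapped, but relative to genes of like transcript length their log2 fold changes were only 0.08 and 0.07 and both pairs of limits overlapped. The limits of MFN1 overlapped under both scalings of the libraries as well. MFN1 (chr3:179065480-179111008, plus strand), which tethers and fuses outer membranes, had an FPKM of 8.78 (limits 8.05 to 9.51) in WT cells and 10.5 (limits 9.65 to 11.4) in PERK-KO cells, with a ratio of 1.20 (interval 1.06 to 1.34). MFN2 (chr1:12040238-12073572, plus strand), which is also found at contacts between mitochondria and the endoplasmic reticulum, had an FPKM of 29.3 (limits 27.8 to 30.7) in WT cells and 33.9 (limits 32.2 to 35.6) in PERK-KO cells, with a ratio of 1.16 (interval 1.08 to 1.24). MFN2 was thus the more abundant mitofusin mRNA in both samples. Its FPKM was 3.33 times that of MFN1 in WT cells and 3.23 times in PERK-KO cells, and the ratio of these was 0.969 (interval 0.846 to 1.11). Relative to OPA1, MFN2 stood at 1.97 times in WT cells and at 1.99 times in PERK-KO cells, a shift of 1.01-fold (interval 0.912 to 1.12).

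The 3 fission genes went different ways. DNM1L (chr12:32832137-32898584, plus strand) had an FPKM of 35.7 (limits 34.1 to 37.2) in WT cells and 39.5 (limits 37.8 to 41.2) in PERK-KO cells, with a ratio of 1.11 (interval 1.04 to 1.18) and the smallest among the 6 higher genes, and came to -0.03 on the log2 scale relative to genes of like transcript length. FIS1 (chr7:100882893-100888371, minus strand), a small tail-anchored protein of the outer membrane that binds DRP1, had an FPKM of 119.8 (limits 113 to 126) in WT cells and 81.2 (limits 75.4 to 87.1) in PERK-KO cells. It was 1.47-fold higher in WT cells (interval 1.35 to 1.62), the largest difference of the 10 genes and just short of 1.5-fold, a size it passed when the libraries were scaled by the median or the 75th percentile. Relative to genes of like transcript length its log2 fold change went from -0.56 to -0.20, with limits still apart, and the largest of the 10 was then that of OMA1, at 0.48. MFF (chr2:228192228-228222549, plus strand), a main DRP1 receptor on the outer membrane, had an FPKM of 31.5 (limits 29.6 to 33.3) in WT cells and 28.7 (limits 26.7 to 30.6) in PERK-KO cells. The limits of MFF overlapped, and its log2 fold change of -0.14 had an interval from -0.26 to -0.01.

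The proportions within the fission group therefore differed between the samples. DNM1L had 0.298 times the FPKM of FIS1 in WT cells (interval 0.278 to 0.320) and 0.486 times in PERK-KO cells (interval 0.447 to 0.529), a shift of 1.63-fold (interval 1.46 to 1.82). FIS1 had 3.80 times the FPKM of MFF in WT cells and 2.83 times in PERK-KO cells, a shift to 0.745 of the WT ratio (interval 0.656 to 0.846). DNM1L against MFF went from 1.13 to 1.38, a shift of 1.21-fold (interval 1.09 to 1.35). These shifts were smaller once the median of genes of like transcript length was subtracted from both genes, an alternative added after the data were seen: 1.13-fold (interval 1.01 to 1.26) for DNM1L against FIS1, 0.919 (interval 0.808 to 1.04) for FIS1 against MFF and 1.04-fold (interval 0.931 to 1.16) for DNM1L against MFF. The intervals of both ratios with MFF then included 1.

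**Figure D2:**
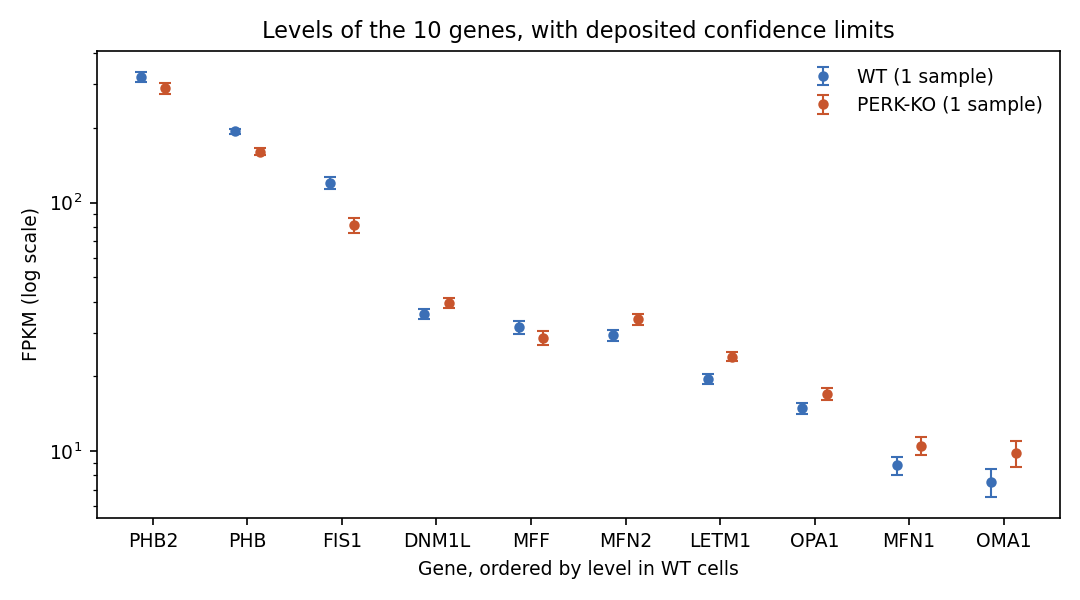
FPKM (y axis, log scale) of the 10 genes, ordered by their level in WT cells (x axis), in the WT and the PERK-KO sample, with bars for the deposited confidence limits. PHB2, PHB and FIS1 lie above 80 FPKM in both samples, and the other 7 lie below 40.

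The prohibitin mRNAs were the most abundant of the 10, and both were lower in PERK-KO cells, although PHB2 came to 0.04 on the log2 scale once the median of genes of like transcript length was subtracted. PHB (chr17:47481420-47492242, minus strand) had an FPKM of 193 (limits 188 to 198) in WT cells and 160.5 (limits 156 to 165) in PERK-KO cells, 1.20-fold higher in WT cells (interval 1.16 to 1.25). PHB2 (chr12:7074515-7079916, minus strand) had an FPKM of 321 (limits 306 to 335) in WT cells and 288 (limits 275 to 302) in PERK-KO cells, 1.11-fold higher in WT cells (interval 1.04 to 1.19). The subunits alternate in the ring, yet PHB2 mRNA stood at 1.66 times that of PHB in WT cells and at 1.80 times in PERK-KO cells. That was a shift of 1.08-fold (interval 1.003 to 1.17). With the median of genes of like transcript length subtracted from both, it was 1.15-fold (interval 1.06 to 1.24). SCARNA12, a small Cajal body RNA gene, lies within PHB2 and had an FPKM of 10.5 (limits 5.23 to 15.7) in WT cells and 16.4 (limits 9.42 to 23.4) in PERK-KO cells.

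LETM1 (chr4:1813206-1857974, minus strand) had an FPKM of 19.5 (limits 18.7 to 20.4) in WT cells and 24.0 (limits 23.0 to 25.05) in PERK-KO cells. The limits lay apart, with a ratio of 1.23 (interval 1.16 to 1.31), and among the 6 higher genes its log2 fold change, 0.30, was second to that of OMA1 and had the lower bound farthest from 0, at 0.21. Relative to genes of like transcript length it was 0.12, with limits that overlapped.

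In order of FPKM, which is per length and so can be compared between genes, WT cells had PHB2, PHB, FIS1, DNM1L, MFF, MFN2, LETM1, OPA1, MFN1 and OMA1. The limits of neighbours in that order overlapped for MFF with MFN2 and for MFN1 with OMA1. The order in PERK-KO cells was the same except that MFN2 stood above MFF, with limits apart, and only MFN1 and OMA1 overlapped. Genes of like transcript length had a median log2 fold change of 0.15 for MFN2 and -0.05 for MFF. With these medians subtracted from the PERK-KO values, MFN2 still stood above MFF, but their limits overlapped. The highest of the 10 had 42.7 times the FPKM of the lowest in WT cells and 29.4 times in PERK-KO cells. Against all genes above the filter, PHB2 was higher than 97.8% of them in WT cells, PHB than 96.3%, FIS1 than 93.9% and OMA1 than 43.7%.

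The direction of the members lined up with the length of their transcripts, apart from OMA1. The 5 with a canonical transcript of at least 4000 bases (MFN2, 4407; DNM1L, 4514; MFN1, 5212; LETM1, 5371; OPA1, 6429) were all higher in PERK-KO cells. Of the 5 under 2000 bases (FIS1, 870; PHB2, 1379; PHB, 1834; OMA1, 1861; MFF, 1921), 3 were lower, 1 was higher and 1 overlapped, and no member lay in between. All expressed genes showed the same pattern: 46.8% of the 5051 genes with a transcript of at least 4000 bases were higher and 7.60% lower, and of the 3586 under 2000 bases 6.61% were higher and 38.4% lower. The running median of the log2 fold change over length went from -0.43 at the shortest to 0.37 at the longest transcripts.

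Relative to that running median, OMA1 was 0.48 higher on the log2 scale, FIS1 0.20 lower (residual -0.20) and PHB 0.16 lower (residual -0.16), and these 3 kept their calls when the median was subtracted. LETM1 (0.12), MFN1 (0.08), MFN2 (0.07) and MFF (-0.08) kept the sign of their log2 fold change with limits that overlapped. OPA1 (-0.04), DNM1L (-0.03) and PHB2 (0.04) changed sign. The median of the 10 was then 0.01. The call of OMA1, unlike those of FIS1 and PHB, was lost under median scaling and at 4 combined standard errors. The level of a gene moved with the fold change as well. Among the 1022 genes with a geometric mean of at least 100 FPKM, where PHB and PHB2 belong, 63.4% were lower in PERK-KO cells. Another 13.4% were higher, beside 18.7% lower and 26.1% higher of all rows above the filter. These 1022 genes had a median transcript of 1443 bases. Their median log2 fold change was -0.25, and -0.07 relative to genes of like transcript length. The part of transcript length, level or the makeup of the libraries in these differences was not tested.

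The wider machinery was read from 30 other genes of mitochondrial dynamics, all above the filter. Of these, 13 were higher in PERK-KO cells, 6 were lower and 11 had overlapping limits, and the median log2 fold change was 0.19. These are 43.3% higher and 20.0% lower, beside 26.1% and 18.7% of all rows above the filter. By length, none of the 8 with transcripts of at least 4000 bases was lower and 5 were higher. Of all expressed genes of that length, 7.60% were lower and 46.8% higher.

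Among 9 genes of OPA1 processing and fusion, 3 were higher, 3 lower and 3 overlapped, or 33.3% in each direction beside the 26.1% higher and 18.7% lower of all rows. YME1L1, the inner membrane protease that also cuts OPA1, went from an FPKM of 62.1 in the WT to 79.9 in the PERK-KO sample (log2 fold change 0.36). AFG3L2, a subunit of the matrix-facing protease, went the other way, from 43.3 to 39.5 (-0.13), as did the rhomboid protease PARL, from 52.7 to 42.9 (-0.30), and STOML2, a prohibitin relative that binds cardiolipin-rich membrane, from 157 to 141 (-0.15). The outer membrane fusion factors FAM73A (mitoguardin 1), from 5.20 to 6.94 (0.42), and PLD6, a mitochondrial phospholipase, from 9.36 to 12.5 (0.42), were higher. Relative to genes of like transcript length, STOML2 changed sign, to 0.04. YME1L1 (0.24), AFG3L2 (-0.19), PARL (-0.13), FAM73A (0.17) and PLD6 (0.42) kept theirs, but the limits of PARL and FAM73A then overlapped. The limits overlapped for SPG7 (0.19), for FAM73B (mitoguardin 2, 0.13) and for SLC25A46 (0.04), an outer membrane protein.

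Of 14 fission adaptors and regulators, 7 were higher and none was lower, beside 26.1% higher and 18.7% lower of all rows, and the median transcript of the 14 had 3639 bases, a length at which the running median lies above 0. Thus FIS1 was the only gene of fission in either list that was lower by the limits as deposited, before transcript length was allowed for. The lowest log2 fold change of the 14 was that of SMCR7 (-0.30), the gene of the DRP1 receptor MID49, whose limits overlapped. The interval of the SMCR7 value, from -0.52 to -0.08, nevertheless lay below 0, as did that of MFF. Relative to genes of like transcript length, SMCR7 came to -0.37 and INF2, also of the 14, to -0.30. Both were then lower by the limits and farther below 0 than FIS1 (-0.20), while 9 of the 14 lay above 0. SMCR7L, which encodes the DRP1 receptor MID51, went from 18.9 to 24.9 (0.40), and DNM2, a dynamin of membrane scission, from 44.7 to 57.0 (0.35). MTFR1, a fission regulator, went from 12.8 to 21.3, and its log2 fold change of 0.73 was the largest in the list, with MTFP1, from 53.4 to 61.7 (0.21), also higher. MARCH5, a ubiquitin ligase of DRP1 and the mitofusins, went from 17.2 to 20.0 (0.21), the deubiquitinase USP30 from 5.05 to 6.89 (0.45) and AKAP1, which anchors a kinase that inhibits DRP1, from 23.8 to 29.6 (0.32).

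The groups of 3 and 4 genes that follow are set beside all rows above the filter, of which 26.1% were higher and 18.7% lower. Of the 3 genes grouped with LETM1, none was higher. LETMD1, which shares its LETM domain, went from 40.7 to 35.7 (-0.19) and GHITM, an inner membrane protein of crista structure, from 104 to 93.3 (-0.15), both lower, while the limits of LETM2 overlapped. Of the 4 genes of transport along microtubules, the adaptors TRAK1, from 9.78 to 12.8 (0.38), and TRAK2, from 1.57 to 2.46 (0.65), and the GTPase RHOT1, from 12.8 to 15.6 (0.28), were higher, and its paralog RHOT2, from 112 to 91.0 (-0.30), was lower. MTFR1 and TRAK2, both higher, were the 2 of the 30 that differed by more than 1.5-fold. Of all rows above the filter, 10.1% passed that size on the higher and 7.54% on the lower side. Relative to genes of like transcript length, MTFR1 stayed at 0.73, while TRAK2 came to 0.41, short of that size. The limits of TRAK1 and LETMD1 then overlapped, and RHOT1 (0.22), RHOT2 (-0.28), GHITM (-0.12) and TRAK2 kept their calls.

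**Figure D3:**
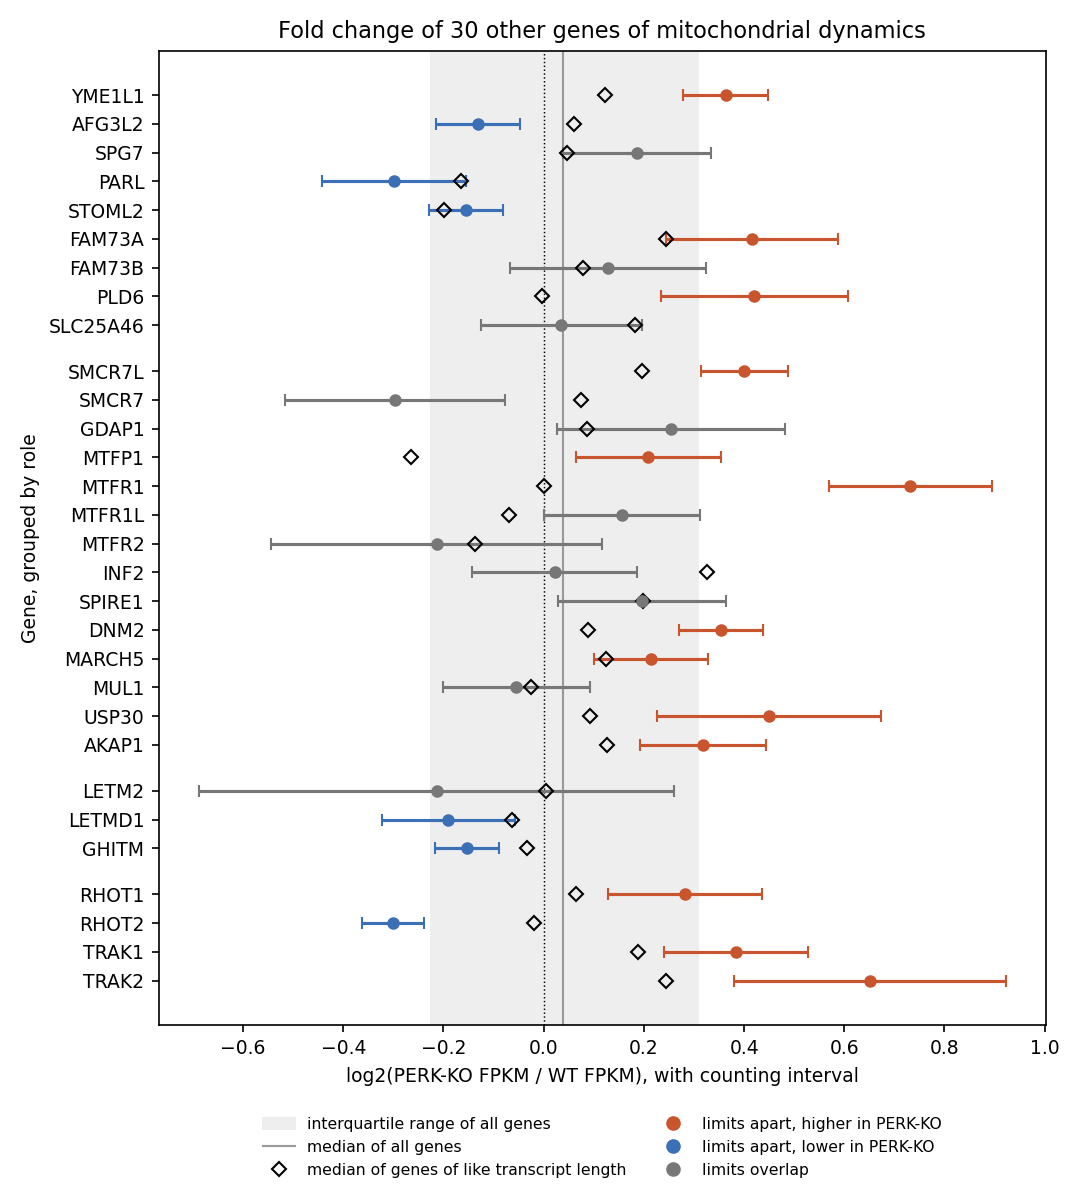
Log2 fold change of PERK-KO over WT FPKM (x axis) for 30 other genes of mitochondrial dynamics, grouped by role (y axis), with bars for the interval from the deposited limits and diamonds for the median of genes of like transcript length. 13 genes are higher, 6 lower and 11 overlap, and MTFR1 at 0.73 and TRAK2 at 0.65 lie farthest to the right.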

How the data were processed

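Polyadenylated RNA of 1 WT and 1 PERK-KO HEK293 sample was compared. Per the submitters' processing notes, TopHat2 2.0.13, Cufflinks 2.2.1 and hg19 were used, and the authors deposited gene-level FPKM with the confidence limits of each value, without fragment counts, so depth is not known. Whether counting used strand is not given in the sources used here, so OPA1 and its antisense gene OPA1-AS1 (listed at 0 in the WT and 0.377 in the PERK-KO sample) cannot be told apart.

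The fold change was the ratio of FPKM values, without a pseudocount. Limits were read as 2 standard errors, which were combined into intervals that cover counting error only. Lengths were those of GENCODE 44 canonical transcripts, GRCh37 (13494 genes, 93.5%), with a running median over 501 genes. Genes named were the 10 members, the list genes whose limits lay apart, the targeted gene and cell markers. SMCR7, INF2, LETM2, SPG7, FAM73B and SLC25A46, whose limits overlapped, and OPA1-AS1 and SCARNA12, which overlap members, were named after their values were seen. Members and lists were chosen with earlier results of these data known. FAM54B and FAM54A were listed as MTFR1L and MTFR2, and PHB is PHB1 in RefSeq. Alternatives were scaling by the median or the 75th percentile, subtraction of the length median, pseudocounts of 0.1 and 1, the study's threshold of 1.49-fold, a 2-fold threshold, the same subtraction for ratios of members (added later), calls at 2 or 4 combined standard errors, and other filters. Scripts were tested on simulated data and used Python 3.11.15 with numpy 2.4.6, pandas 2.3.3, scipy 1.17.1 and matplotlib 3.10.9.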

Additional observations from a re-analysis of the deposited data

How the results depend on the processing

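Scaling by the median and by the 75th percentile shifted the log2 fold changes by 0.04 and 0.03. With the median of all genes set to 0, the members called higher went from 6 to 2 (MFN2 and LETM1) and FIS1 became 1 member past 1.5-fold, as it also did under 75th percentile scaling, where MFN1 and DNM1L lost their calls. With the running median over transcript length subtracted, 1 member was higher (OMA1), the median log2 fold change of the members was 0.0062 against 0.17, and the sign reversed for OPA1 (-0.0414), DNM1L (-0.0284) and PHB2 (0.0408). At 4 combined standard errors 2 members were higher (MFN2 and LETM1) and PHB2 was no longer lower, and at 2 MFF was lower as well. FIS1 and PHB were lower under each of these 5 settings. The cause was not tested. The counts of members lower and of the 30 other genes, and the values under pseudocounts and other thresholds, stayed within 1.5 times. With the length median subtracted, 5 of the 30 were lower against 6, but they were not the same genes. PARL, STOML2 and LETMD1 were then no longer lower, and SMCR7 and INF2 were. No filter on low values gave background shares of 11.2% lower and 15.9% higher.

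No paired analysis was possible because each group has 1 sample, and no sample was left out for the same reason. The deposited limits hold no variation between cultures or clones.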
